A study of Mus musculus with 8 samples.

Results

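The genes described here were 10 components of Wnt signalling in articular chondrocytes: the ligand genes Wnt4, Wnt5a, Wnt5b, Wnt9a and Wnt11, the β-catenin gene Ctnnb1, the transcription factor genes Lef1 and Tcf7, and Axin2 and Nkd1, which are known as targets and feedback inhibitors of the pathway. They were taken by gene symbol, and all 10 were found among the 54658 genes of the deposited count table. Primary chondrocytes of wild-type mice aged 3 weeks, isolated from the femoral head, were cultured with IL-1β at 1 ng/mL (4 samples) or with vehicle (4 samples) for 24 h, and their total RNA was sequenced. The labels do not say whether the 4 samples of a group came from separate animals or separate wells, so the p-values measure the spread between these samples, which may be technical.

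Wnt ligands are secreted, lipid-modified proteins that bind Frizzled receptors. In the β-catenin-dependent branch, Frizzled and the co-receptors Lrp5 and Lrp6 hold back a cytoplasmic destruction complex, so that β-catenin protein escapes degradation, enters the nucleus and works there with TCF and LEF factors on target genes. Other ligands, among them Wnt5a, Wnt5b and Wnt11, are best known for branches that do not need β-catenin, through cell polarity and calcium. In cartilage, Wnt signals are known for their part in chondrocyte differentiation and joint formation, and both too much and too little β-catenin activity have been linked with cartilage damage. RNA counts measure neither the amount nor the position of β-catenin protein.

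With IL-1β, the members moved in both directions and by modest amounts. Wnt11, Wnt9a and Axin2 were higher, whereas Wnt5a, Wnt5b, Lef1 and Ctnnb1 were lower. The log2 fold changes of these 7 genes lay between -0.65 (Lef1) and 0.90 (Axin2), so that 0 of the 10 members passed the fold threshold of 1 on the log2 scale together with an adjusted p-value under 0.05. Wnt4, Tcf7 and Nkd1 did not pass the test. Among all 14404 genes tested, 40.2% had an adjusted p-value under 0.05 and 5.21% passed both thresholds.

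Sequences of the 300 bases around transcription starts (250 before and 50 from the start onwards) were available for 9 of the 10 members in RefSeq (GRCm38.p6), as 17 windows, since several genes have more than 1 start. Wnt5a had no window. The windows were searched on both strands for the binding motif of TCF and LEF factors, spelled CTTTGAA or CTTTGAT, and for the NF-κB consensus motif, since IL-1β is known to act through NF-κB. The TCF/LEF motif was found in 2 of the 17 windows, and 8.65% of all 32851 mouse windows of this length held it. The 2 windows belong to the ligands Wnt11 and Wnt5b and are shown here, because they are the member starts that carry the letters TCF and LEF factors recognize. The windows of Axin2 and Lef1 follow, as those of the members with the largest changes upwards and downwards among the genes past the test. Each is written 5′ to 3′ on the strand of its gene, and capitals mark the motif. In the Wnt11 window (chr7:98834862-98835161, plus strand), which belongs to 1 of 2 starts, the motif reads on the opposite strand and its first printed base lies 51 bases before the start. In the Wnt5b window (chr6:119449337-119449636, minus strand), which belongs to 1 of 3 annotated starts of the gene, it lies 71 bases before the start. The Axin2 window (chr11:108920099-108920398, plus strand) and the Lef1 window (chr3:131110047-131110346, plus strand) hold no motif and have no capitals. The Lef1 window is the most upstream of 4, and the motif was in none of the 4.

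Wnt11: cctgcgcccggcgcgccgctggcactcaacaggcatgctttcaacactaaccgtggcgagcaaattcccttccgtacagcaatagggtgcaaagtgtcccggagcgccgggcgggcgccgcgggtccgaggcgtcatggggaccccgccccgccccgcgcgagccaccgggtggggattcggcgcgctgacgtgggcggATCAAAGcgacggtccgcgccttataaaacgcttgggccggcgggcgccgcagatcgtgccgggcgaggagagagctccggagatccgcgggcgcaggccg

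Wnt5b: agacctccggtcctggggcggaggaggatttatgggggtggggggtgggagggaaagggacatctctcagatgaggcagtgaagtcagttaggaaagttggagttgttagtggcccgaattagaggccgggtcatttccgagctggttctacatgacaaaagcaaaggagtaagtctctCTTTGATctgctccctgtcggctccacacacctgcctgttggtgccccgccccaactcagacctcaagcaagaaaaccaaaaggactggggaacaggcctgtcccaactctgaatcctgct

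Axin2: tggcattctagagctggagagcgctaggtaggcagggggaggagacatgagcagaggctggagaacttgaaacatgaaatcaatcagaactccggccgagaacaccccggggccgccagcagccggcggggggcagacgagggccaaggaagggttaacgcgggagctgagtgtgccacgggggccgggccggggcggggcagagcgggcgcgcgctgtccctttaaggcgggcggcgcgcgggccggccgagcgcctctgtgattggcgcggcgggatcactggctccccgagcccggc

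Lef1: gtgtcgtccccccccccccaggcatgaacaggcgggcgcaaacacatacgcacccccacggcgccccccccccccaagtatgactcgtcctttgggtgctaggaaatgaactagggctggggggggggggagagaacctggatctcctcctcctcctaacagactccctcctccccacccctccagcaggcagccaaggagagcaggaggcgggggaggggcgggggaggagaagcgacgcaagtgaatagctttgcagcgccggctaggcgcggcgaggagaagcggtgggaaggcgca

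The NF-κB consensus was found in 0 of the 17 windows, against 4.51% of all windows. These matches describe letters in short windows and say nothing about binding, and known TCF/LEF sites of target genes often lie outside such windows.

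The libraries held 10992355 to 17104351 counts with IL-1β and 13970959 to 17456063 with vehicle. Levels are given as CPM, the counts of a gene relative to the total of its library, scaled with TMM factors, which lay between 0.9842 and 1.01, and at these depths 3 counts correspond to 0.172 to 0.273 CPM. Chondrocyte markers were present in every library, and their summed level (12 genes) was 4365.5 to 4782.1 CPM with IL-1β and 16734.2 to 17388.8 CPM with vehicle. In the test described below, 12 of 12 were lower, as were 19.8% of all genes tested. The 14 lymphocyte markers summed to 0.78 to 1.59 CPM with IL-1β and 0.998 to 1.18 CPM with vehicle, with Cd3e, Trbc1 and Ms4a1 at 0 in every sample. T cells also express Lef1 and Tcf7. Of this list, Trbc2 was lower with IL-1β, at 0, 0, 0 and 1 counts against 8, 4, 3 and 7 with vehicle. Its groups did not overlap, although it was too low to be tested. More counts with IL-1β were found for Cd247 (15 against 9), Cd5 (8 against 3) and Trac (5 against 3), among others. Fewer were found for Cd4 (12 against 15) and Cd79a (13 against 14). The groups of these other genes overlapped, and 0 of the 14 markers were tested. The 13 macrophage and neutrophil markers summed to 16.9 to 20.6 and 13.3 to 15.1 CPM (Ly6g and Mpo at 0), mostly from Cd68. Of the 2 tested, Cd68 was higher with IL-1β (log2 fold change 0.67, adjusted p = 8.49e-07) and Lyz2 was lower (-0.6, adjusted p = 0.0364). Laptm5, too low to be tested, had 24 counts with IL-1β and 74 with vehicle, and its groups did not overlap. The 9 endothelial markers summed to 2.13 to 2.52 and 1.73 to 2.64 CPM (Cldn5 at 0). Osteoblast and osteocyte markers (9 genes, Sost at 0) summed to 33.6 to 41.8 CPM with IL-1β and 99.8 to 113.0 CPM with vehicle. Synovial and fibroblast markers (9 genes, none at 0 in every sample) summed to 2016.4 to 2128.9 and 869 to 918 CPM. Nearly all of this was Prg4, which chondrocytes of the joint surface also make. All 3 markers tested were higher with IL-1β, as were 20.4% of all genes tested. The log2 fold changes were 1.23 (Prg4), 0.76 (Cd34) and 0.58 (Pdgfra). The chondrocyte, macrophage and neutrophil, osteoblast and synovial sums move with the treatment, and their part in the results below was not tested. In such bulk samples, fewer cells of a type and less RNA per cell cannot be told apart.

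All 14404 genes that exceeded a CPM of 1 in 4 or more samples were tested by edgeR's quasi-likelihood test with Benjamini-Hochberg adjustment. Of these, 40.2% passed at an adjusted p-value under 0.05 (20.4% higher and 19.8% lower with IL-1β), and 5.21% were past both thresholds. Against this background, 3 of 10 members were higher, 4 were lower and 3 did not pass. In 7 members, the 4 IL-1β samples lay apart from the 4 vehicle samples, as in 36.8% of all genes tested. The median log2 fold change was -0.23 over the 10 members and -0.0012 over all genes tested. Wnt4, Wnt9a and Axin2 had a CPM above 1 in all 4 IL-1β samples but in only 3, 3 and 1 of the vehicle samples, so they met the filter through the IL-1β group. Without a filter, the adjusted p-value was 0.0562 for Wnt9a and 0.0086 for Axin2.

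**Figure D1:**
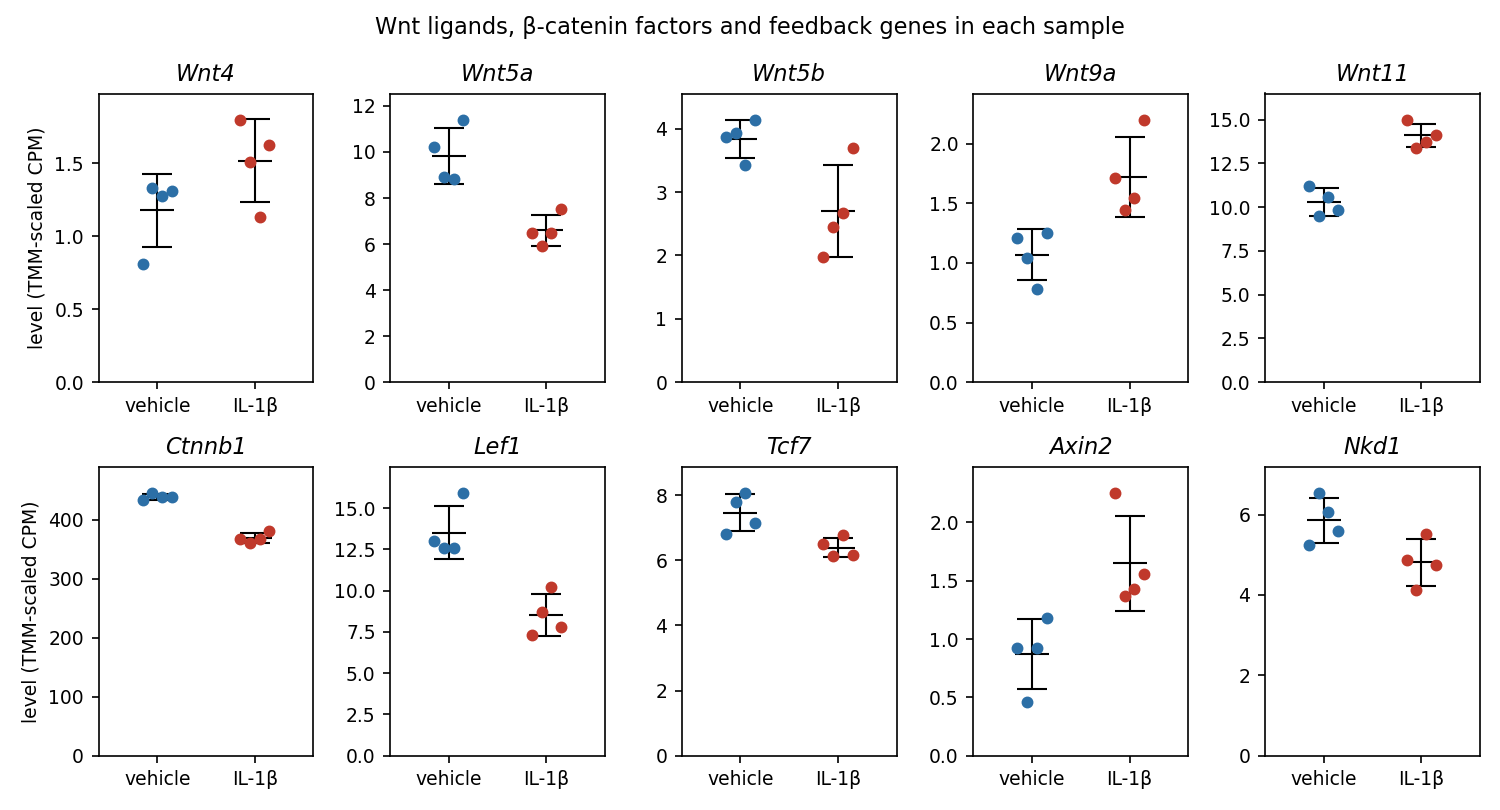
Levels of the 10 genes in each sample (TMM-scaled CPM, linear axes from 0), with points for the 4 vehicle (blue) and 4 IL-1β (red) samples and bars for the mean ± SD. Ctnnb1, at 360 to 445 CPM, stands far above the other genes, and the groups lie apart for Wnt5a, Wnt9a, Wnt11, Ctnnb1, Lef1, Tcf7 and Axin2.

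Among the ligands, Wnt11 was the most abundant per length and rose with IL-1β. Wnt11 acts mainly in cell polarity and is known from cartilage and limb development. Its level was 15, 13.4, 13.7 and 14.1 CPM in IL-1β replicates 1 to 4 and 11.2, 9.48, 10.6 and 9.86 CPM in vehicle replicates 1 to 4. Every IL-1β sample was above every vehicle sample, with means of 14.1 ± 0.668 and 10.3 ± 0.783 CPM (SD, n = 4). This was a log2 fold change of 0.45 (SE 0.0869, adjusted p = 0.000118), a 1.36-fold level. Wnt11 (chr7:98835112-98855195, plus strand, GRCm38) shares 8.8% of its exon bases with an opposite-strand pseudogene, Gm8398, which had 0 counts in all samples.

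Wnt9a, a ligand of the β-catenin branch known for its role in joint formation, was also higher. Its level was 1.71, 1.44, 1.54 and 2.20 CPM with IL-1β and 1.21, 1.04, 0.784 and 1.25 CPM with vehicle. The groups did not overlap, but the values rest on few reads, 96 over the 4 IL-1β samples and 69 over the 4 vehicle samples. The log2 fold change was 0.67 (SE 0.238, adjusted p = 0.026). This call was lost without IL-1β replicate 4 (0.53, adjusted p = 0.113), without vehicle replicate 2 (0.65, adjusted p = 0.0554) or without vehicle replicate 3 (0.56, adjusted p = 0.0837), and by DESeq2 (0.68, adjusted p = 0.0778). Wnt9a lies at chr11:59306928-59333552 on the plus strand.

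Wnt4, a ligand with roles in kidney, gonad and joint development, did not pass the test. Its level was 1.80, 1.51, 1.13 and 1.63 CPM with IL-1β and 0.808, 1.33, 1.28 and 1.31 CPM with vehicle. The groups overlapped, since IL-1β replicate 3 was below 3 of the 4 vehicle samples. Its log2 fold change was 0.34 (SE 0.245, 95% interval -0.16 to 0.84, adjusted p = 0.294), from 83 and 75 counts in all. The interval includes 0, so no change and a rise were not told apart at this depth. Without vehicle replicate 1, the lowest sample, the log2 fold change was 0.18 (adjusted p = 0.626). Wnt4 lies at chr4:137277489-137299726 on the plus strand.

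Wnt5a and Wnt5b are close paralogs that act mainly without β-catenin and are known to shape growth plate chondrocytes, and both were lower with IL-1β. The level of Wnt5a was 6.49, 5.91, 6.48 and 7.52 CPM with IL-1β and 10.2, 8.90, 8.84 and 11.4 CPM with vehicle. All 4 IL-1β samples were below all 4 vehicle samples. The fitted log2 fold change was -0.57 (SE 0.112, adjusted p = 0.00012), a level 32.7% lower. Wnt5a (chr14:28504750-28527448, plus strand) shares 4.58% of its exon bases with an antisense gene, Gm2670, that had 5 counts with IL-1β and 13 with vehicle, against 369 and 627 for Wnt5a itself.

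The level of Wnt5b was 1.98, 2.45, 2.67 and 3.69 CPM with IL-1β and 3.86, 3.93, 3.42 and 4.14 CPM with vehicle. IL-1β replicate 4 was above vehicle replicate 3, so the groups overlapped, and the spread was wider with IL-1β (SD 0.72) than with vehicle (SD 0.302). Its log2 fold change was -0.49 (SE 0.169, adjusted p = 0.0203). The call was lost without IL-1β replicate 1 (-0.40, adjusted p = 0.07), without IL-1β replicate 2 (-0.45, adjusted p = 0.0555) or without vehicle replicate 4 (-0.46, adjusted p = 0.0535). Wnt5b spans chr6:119432531-119544347 on the minus strand, and its 3 annotated starts were counted together.

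Per length, the ligands kept Wnt11 at the top but the order below it was not resolved in full. Levels per length are in RPKM (CPM per kilobase of exons), which allow a rough comparison between genes. The length covers all annotated exons of a gene, so the order depends on the annotation. In CPM with vehicle, Wnt11 (9.48 to 11.2) overlapped Wnt5a (8.84 to 11.4). With vehicle, Wnt11 was at 2.49 ± 0.189 RPKM and the next ligand, Wnt10b, at 2.15 RPKM, without overlap between samples. Wnt5b (1.45), Wnt5a (1.25) and Wnt7b (1.14) followed, and each overlapped its neighbour, while Wnt9a (0.322) and Wnt4 (0.282) were low and overlapped each other. With IL-1β, Wnt11 was at 3.40 ± 0.161 RPKM, and its lowest sample (3.24) was above the highest of Wnt10b (1.70). From Wnt10b (1.54) through Wnt5b (1.02), Wnt5a (0.843), Wnt7b (0.623) and Wnt2b (0.573) to Wnt9a (0.518), each ligand overlapped the next.

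**Figure D2:**
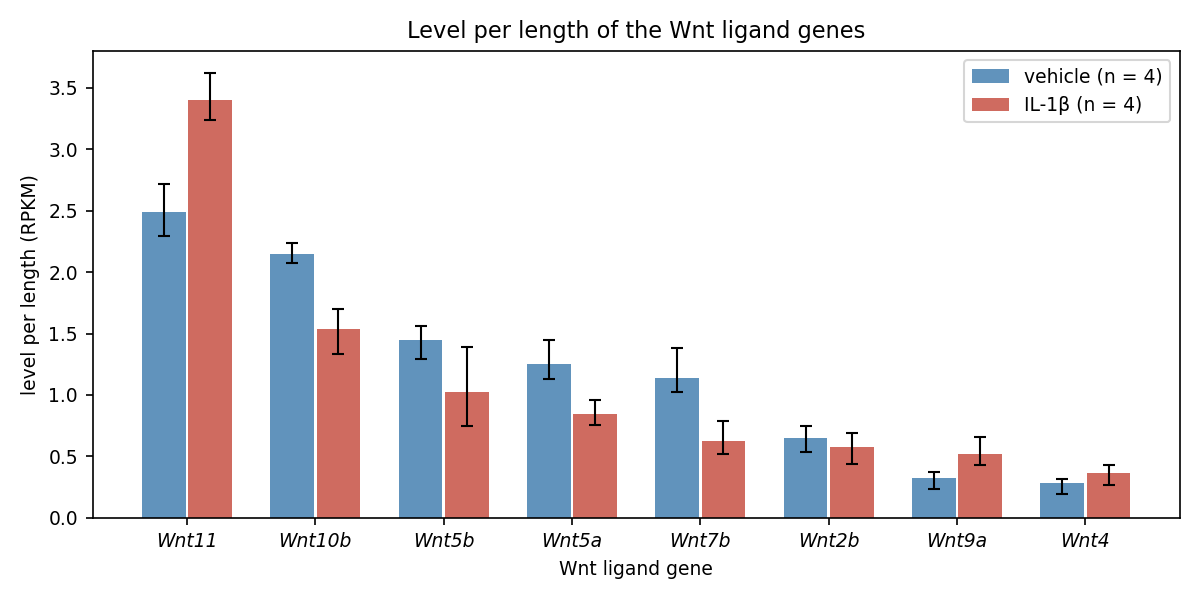
Mean level per length (RPKM, linear axis from 0) of the 8 ligand genes that passed the filter, with vehicle in blue and IL-1β in red, and whiskers from the lowest to the highest of the 4 samples. The bar of Wnt11 is taller with IL-1β (3.40 against 2.49 RPKM), and those of Wnt10b, Wnt5b, Wnt5a and Wnt7b are shorter.

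Summed over the 19 Wnt ligand genes, the level was 9.20 ± 0.392 RPKM with IL-1β and 9.95 ± 0.23 RPKM with vehicle. Wnt11 made up 38.0, 36.2, 37.8 and 35.7% of this sum in the 4 IL-1β samples and 27.2, 23.8, 25.1 and 23.8% in the 4 vehicle samples, and these shares did not overlap. The shares of Wnt5a were 9.16 ± 0.722% and 12.6 ± 1.5%, and those of Wnt9a were 5.61 ± 0.899% and 3.24 ± 0.651%. Those of Wnt5b were 11 ± 2.77% and 14.6 ± 1.33%, and those of Wnt4 were 3.92 ± 0.613% and 2.84 ± 0.621%. The 5 members together took 66.7 ± 3.34% of the ligand sum with IL-1β and 58.2 ± 3.05% with vehicle. Shares of one sum are bound to each other, so they were not tested apart from the genes. Of the 14 other ligands, 3 passed the filter. Of these, Wnt10b (-0.50, adjusted p = 0.000927) and Wnt7b (-0.89, adjusted p = 2.02e-05), both ligands of the β-catenin branch, fell, and Wnt2b stood at -0.17 (adjusted p = 0.515). Wnt2 and Wnt3a were at 0 in every sample.

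Ctnnb1 encodes β-catenin, which links cadherins to the cytoskeleton at cell contacts as well as carrying the Wnt signal. Its level was 368, 360, 367 and 381 CPM in the IL-1β samples and 434, 445, 438 and 438 CPM in the vehicle samples. The groups lay well apart compared with their spread, with means of 369 ± 9.05 and 439 ± 4.64 CPM. On the log2 scale the change was -0.25 (SE 0.0305, adjusted p = 8.89e-08), a level 15.9% lower. This was the smallest change among the members past the test and also the most precisely measured, from 20617 and 28030 counts. Ctnnb1 (chr9:120929216-120960507, plus strand) shares 14.62% of its exon bases with Ulk4 on the opposite strand, to which only 247 and 315 counts were assigned, and 0.44% with Mir7090. Whether the counting used strand is not given in the sources used here.

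Lef1, a DNA-binding partner of β-catenin and itself a known β-catenin target, fell most among the members. Its level was 7.30, 8.73, 10.2 and 7.80 CPM with IL-1β and 13.0, 12.6, 12.6 and 15.9 CPM with vehicle. All IL-1β samples were below all vehicle samples. On the log2 scale the change was -0.65 (SE 0.107, adjusted p = 1.18e-05), a level 36.2% lower, and it was -0.76 to -0.56 when each sample was left out in turn. Vehicle replicate 4 stood above the other 3 vehicle samples. Lef1 (chr3:131110471-131224356, plus strand) shares 13.75% of its exon bases with an antisense gene, Gm43352, with 13 and 28 counts against 484 and 862 for Lef1.

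Tcf7, which encodes TCF1, a relative of LEF1 best known from T cells, did not pass the test. Its level was 6.49, 6.13, 6.77 and 6.17 CPM with IL-1β and 6.81, 7.80, 8.06 and 7.16 CPM with vehicle. The groups did not overlap, but the highest IL-1β sample (6.77) and the lowest vehicle sample (6.81) nearly touched. The log2 fold change was -0.22 (SE 0.108, 95% interval -0.44 to 0.0, adjusted p = 0.115). Tcf7 lies at chr11:52252371-52283014 on the minus strand.

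Per length, the 4 genes of the TCF/LEF family kept their order in both groups, without overlap between neighbours. With vehicle, Tcf7l1 was at 7.05 RPKM, Tcf7l2 at 4.18, Tcf7 at 2.84 and Lef1 at 1.54, and with IL-1β the values were 6.88, 3.67, 2.43 and 0.968. Lef1 was thus the lowest of the family per length in both conditions, an order that depends on the annotated lengths. In CPM, Lef1 was above Tcf7, at 12.6 to 15.9 against 6.81 to 8.06 with vehicle. With IL-1β, Lef1 was at 7.30 to 10.2 CPM and Tcf7 at 6.13 to 6.77 CPM. Tcf7l2 fell (-0.18, adjusted p = 0.00943), and Tcf7l1, which was named after its values were seen, stood at -0.025 (adjusted p = 0.793). Differences in the change between these genes were not tested.

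Axin2 and Nkd1 are both known as β-catenin targets that restrain the pathway, Axin2 as a scaffold of the destruction complex and Nkd1 through Dishevelled. Only Axin2 passed the test here, and the difference in change between the genes was not tested. Axin2, often used as a readout of β-catenin activity, had 2.25, 1.37, 1.43 and 1.56 CPM with IL-1β and 0.923, 0.462, 0.927 and 1.18 CPM with vehicle. All IL-1β samples were above all vehicle samples, and IL-1β replicate 1 was the highest. The reads were few, with 25, 19, 24 and 22 counts in the IL-1β samples and 16, 8, 13 and 18 in the vehicle samples. The log2 fold change was 0.90 (SE 0.274, 95% interval 0.34 to 1.46, adjusted p = 0.00913), a 1.87-fold level. It was 0.68 without vehicle replicate 2, where the call was lost (adjusted p = 0.0515), and 1.08 without vehicle replicate 4, where it passed the fold threshold. Axin2 (chr11:108920349-108950783, plus strand) shares 3.8% of its exon bases with an antisense gene, Gm11670, which had 0 counts.

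Nkd1 had 4.87, 4.11, 5.52 and 4.75 CPM with IL-1β and 5.25, 6.53, 6.06 and 5.59 CPM with vehicle. The groups overlapped through IL-1β replicate 3 and vehicle replicate 1. The log2 fold change was -0.27 (SE 0.127, adjusted p = 0.0878), and the gene passed the test without IL-1β replicate 3 (-0.36, adjusted p = 0.0463). Nkd1 lies at chr8:88521354-88594884 on the plus strand. Per length, Nkd1 was at 1.28 ± 0.123 RPKM with vehicle and 1.06 ± 0.127 with IL-1β, and Axin2 was at 0.159 ± 0.0545 and 0.3 ± 0.0741, so Axin2 remained the lowest of the 10 members in both groups, although its samples overlapped those of Wnt4.

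**Figure D3:**
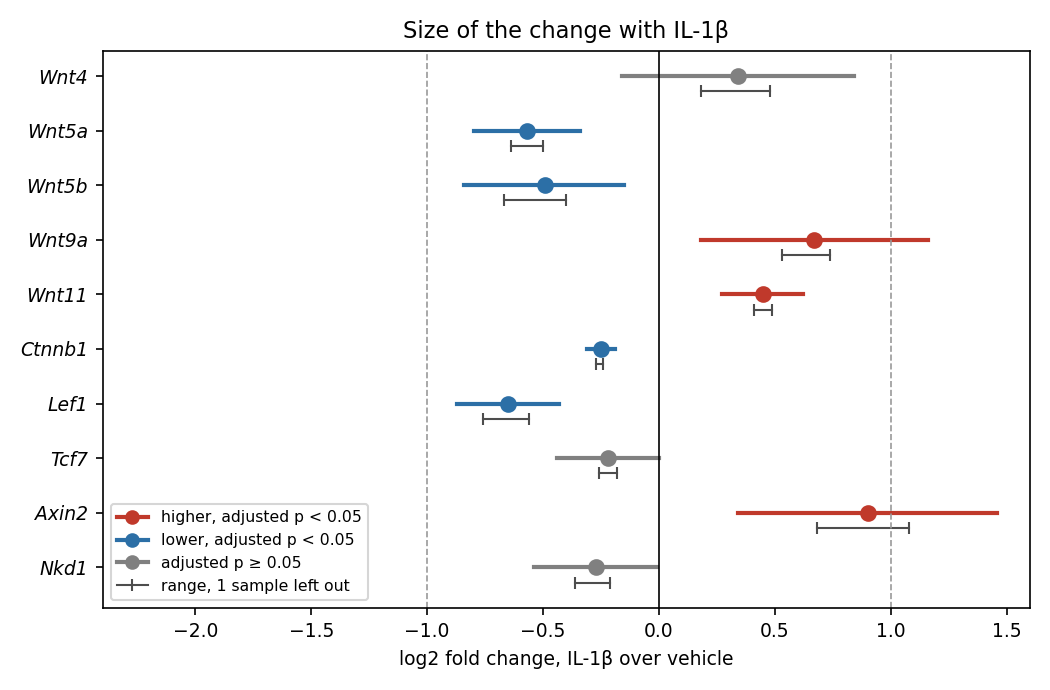
Log2 fold change (IL-1β over vehicle) of the 10 genes with its 95% interval (thick line) and the range over 8 fits that each left out 1 sample (thin line below), with dashed lines at the fold threshold of 1. Ctnnb1 has the narrowest interval (-0.31 to -0.19) and Axin2 the widest (0.34 to 1.46), and no thin line crosses 0.

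Of 123 other genes of the pathway, 95 passed the filter, with 18 higher, 31 lower and 46 not past the test, and 13 were past both thresholds (3 higher and 10 lower). Their median log2 fold change was -0.024. Of all genes tested, 20.4% were higher, 19.8% were lower and 5.21% were past both thresholds. Among the 16 receptor genes, 15 were tested, with 2 higher, 9 lower and 4 not past. The lower genes included the Frizzled receptors Fzd8 (46.2 ± 1.89 against 143 ± 3.0 CPM, log2 fold change -1.63, adjusted p = 6.15e-24) and Fzd9 (8.50 ± 1.02 against 22 ± 1.77 CPM, -1.36, adjusted p = 2.39e-13). Both co-receptors of the β-catenin branch, Lrp5 (-0.24, adjusted p = 4.69e-06) and Lrp6 (-0.39, adjusted p = 1.7e-11), were lower too. The 2 higher receptors were Fzd1 (0.43) and Fzd4 (0.32). Fzd1, Fzd4, Lrp5 and Lrp6 were named after their values were seen. Ryk, a receptor of Wnt5a and other ligands and the most abundant receptor per length, was at 157 ± 2.67 and 155 ± 0.765 CPM (log2 fold change 0.016, adjusted p = 0.707).

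R-spondins strengthen Wnt signals through LGR receptors, and 3 of these 7 genes passed the filter. For comparison with the calls in this paragraph, 20.4% of all genes tested were higher and 19.8% were lower. Lgr6 (12.0 ± 1.44 against 34.4 ± 2.47 CPM, -1.51, adjusted p = 3.38e-16) and Lgr4 (-0.37, adjusted p = 1e-07) fell, and Rspo3, named after its values were seen, rose (0.62, adjusted p = 5.81e-05). Of the 5 genes for ligand release, Trabd2b, which encodes a protease that inactivates Wnts, fell (-0.32, adjusted p = 3.12e-07), and the other 4, among them the retromer subunit gene Vps35 (0.014), did not pass.

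Secreted antagonists trap Wnts or block their co-receptors, and 5 of 13 passed the filter, with 4 lower and 1 not past. Of all genes tested, 19.8% were lower. Frzb (13.9 ± 1.71 against 37.6 ± 0.431 CPM, -1.42, adjusted p = 7.1e-17) and Wif1 (7.74 ± 0.727 against 21.5 ± 1.75 CPM, -1.46, adjusted p = 3.55e-14), which bind Wnt ligands, fell. Sfrp4 was at 0.228 ± 0.12 CPM with IL-1β, close to the level of 3 counts, and at 2.21 ± 0.288 CPM with vehicle (-3.20, adjusted p = 2.86e-09), and met the filter through its vehicle samples alone. Igfbp4, an IGF-binding protein also known to block Wnt receptors, fell by 0.18 on the log2 scale (adjusted p = 0.000429). Sost was at 0 in every sample.

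Dishevelled and the destruction complex set β-catenin protein levels. All 16 of their genes met the filter, with 4 higher, 0 lower and 12 not past, where 40.2% of all genes tested passed. The higher genes were the APC-binding Amer1 (0.27, adjusted p = 0.0204) and the kinase genes Csnk1e (0.23), Csnk1d (0.14) and Gsk3b (0.099, adjusted p = 0.00857), the last of them named after its values were seen. Csnk1a1, the most abundant, was at 441 ± 3.52 and 433 ± 8.19 CPM. Among 13 genes of TCFs and nuclear co-factors, 4 were higher, 2 lower and 7 not past, against the same 40.2% of all genes tested. The β-catenin co-activators Pygo2 (0.22, adjusted p = 0.000153) and Bcl9 (0.19, adjusted p = 0.00364) rose, as did Ep300 (0.17) and Tle3 (0.14), and Tle1 fell (-0.14) with Tcf7l2, where Ep300, Tle3 and Tle1 were named after their values were seen.

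Other genes listed as β-catenin targets in various tissues did not share a direction. Of 16, 12 passed the filter, with 2 higher, 6 lower and 4 not past, where 20.4% of all genes tested were higher and 19.8% lower. Cd44, a hyaluronan receptor, rose from 114 ± 6.49 to 325 ± 13.8 CPM (1.51, adjusted p = 5.66e-23), and Ascl2, a transcription factor of intestinal stem cells, from 0.635 ± 0.29 to 3.46 ± 0.743 CPM (2.43, adjusted p = 5.3e-09), having met the filter through its IL-1β samples alone. Wisp2, a secreted CCN protein, fell from 24.3 ± 0.748 to 10.6 ± 0.713 CPM (-1.18, adjusted p = 5.3e-14), and Myc fell slightly (-0.14, adjusted p = 0.00203). The cell cycle gene Ccnd1 (-0.61), Wisp1 (-0.39), the Wnt deacylase gene Notum (-0.68) and Bambi (-0.46) were the other lower genes, named after their values were seen. Many of these genes answer to other pathways as well.

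**Figure D4:**
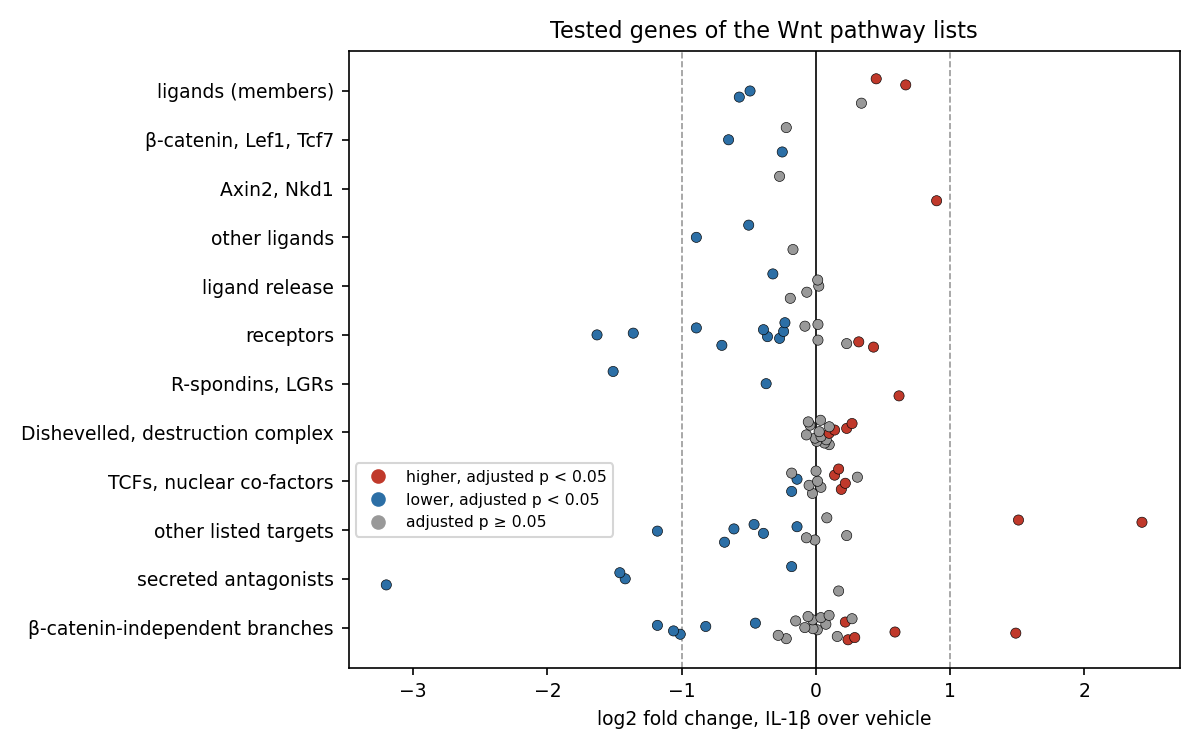
Log2 fold change (IL-1β over vehicle) of every tested gene of the 10 members (top 3 lines) and of the other pathway lists, 1 point per gene, spread vertically only for legibility, with red for higher, blue for lower and grey for not past the test. Genes beyond the dashed lines at 1 and -1 lie among the receptors, LGRs, other targets, antagonists and β-catenin-independent genes. None lie among the members or the destruction complex, where 5.21% of all genes tested were past both thresholds.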

How the data were processed

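RNA-Seq of 8 samples was analysed, grouped by the treatment in the labels. The authors used cutadapt for trimming, aligned the reads to mm10 by STAR (version 2.4.2a in the submitters' processing notes, where the study's methods name a different version) and counted them per gene with featureCounts. They deposited whole-number counts, not scaled to a common total. The methods name a correction by RUVseq, and its place before or after this table is not stated. The levels per length used the gene lengths (unit: other, in bases) that the authors deposited in the same table.

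The 14404 genes exceeding a CPM of 1 in 4 or more samples were fitted with edgeR 4.0.16 (TMM, quasi-likelihood test, two-sided, treatment as the only term, R 4.3.3, limma 3.58.1), with p adjusted over all of them (Benjamini-Hochberg). The thresholds were a log2 fold change beyond 1 and an adjusted p-value under 0.05. The methods of the study use DESeq2, which was an alternative here (version 1.42.0). Further alternatives were other size factors, other filters, 1 RUVs factor, a replicate block, a log2 fold change beyond 2, and each sample left out in turn. The code was tested on simulated data. SEs and intervals are on the log2 scale, and intervals are not adjusted.

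Total counts were 10992355 to 17456063. The level of 3 counts covers counting error alone, because PCR copies of a molecule were not marked. No library was a duplicate of another, as chi-square per degree of freedom was 1.98 to 6.37 within groups. Positions and overlaps came from the GENCODE vM21 annotation (GRCm38), in which exon lengths of 10 of 10 members equal those listed. Promoter windows came from RefSeq. Figures were made with matplotlib 3.10.9 and tables with pandas 2.3.3 and numpy 2.4.6 under Python 3.11.15.

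The members and lists were chosen with earlier results of these data known. Named genes are the 10 members, and in each pathway list up to 5 genes with the largest change past both thresholds, or else up to 3 with an adjusted p-value under 0.05, and the gene with the highest level per length. All other genes were named after their values were seen.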

Additional observations from a re-analysis of the deposited data

Results flagged for a closer look

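In each group of 4 samples, the highest and lowest values of the 10 members were compared with the nearest other sample (Dixon's ratio at its 95% critical value), which gave 2 of 20 groups where chance gives about 1 in 20. Wnt4 in vehicle replicate 1 was at 0.808 CPM, below the other vehicle samples at 1.28 to 1.33 CPM. Without it, the log2 fold change of Wnt4 was 0.18 (adjusted p = 0.626) in place of 0.34. Lef1 in vehicle replicate 4 was at 15.9 CPM, above the other vehicle samples at 12.6 to 13.0 CPM. Without vehicle replicate 4, Lef1 was still lower with IL-1β, at a log2 fold change of -0.56 (adjusted p = 7.63e-05).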

How the results depend on the processing

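Of 406 recomputed values, 385 were rated the same, 0 reversed, 9 calls were lost, 1 was gained and 11 counts of genes moved. A member was rated the same if its direction and its side of the adjusted p threshold were kept. A count of genes was rated by a fixed ratio to the main count, which is a loose rule. By it, 511 genes past both thresholds, with a CPM above 1 required in all 8 samples, were rated the same as 751. The number of genes past both thresholds was 1206 without a filter and 183 at a log2 fold change beyond 2. The number of members past both thresholds was 0 to 1 when each sample was left out, with Axin2 passing without vehicle replicate 4. Calls of Wnt5b, Wnt9a, Axin2 and Nkd1 depended on single samples, as given above, and those of Wnt5a, Wnt11, Ctnnb1 and Lef1 did not under any alternative run. With a CPM above 1 required in all 8 samples, Wnt4, Wnt9a and Axin2 were not tested. The labels number the replicates 1 to 4 in both groups, but deviations of same-numbered samples correlated at only -0.0699 to 0.0416 over 4 pairs (other pairs -0.085 to 0.0909), so the numbers were not taken as pairs. With a replicate block, 751 genes were past both thresholds, of which 745 were the same genes, and no member's call changed. Depth limited Wnt4, Wnt9a and Axin2 most, with 55 to 96 counts per group.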

Other observations

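Genes of the Wnt branches that do not use β-catenin moved in both directions. All 23 passed the filter, with 5 higher, 5 lower and 13 not past the test, and a median log2 fold change of -0.021. Among all genes tested, 40.2% passed, 20.4% higher and 19.8% lower, so such a mix is not particular to these branches. Celsr3, a polarity cadherin, rose from 0.947 ± 0.312 to 2.75 ± 0.294 CPM (log2 fold change 1.49, adjusted p = 3.31e-06), having met the filter through its IL-1β samples, whereas its paralog Celsr2 fell from 46.9 ± 1.12 to 23.2 ± 2.41 CPM (-1.01, adjusted p = 8.3e-15). The formin-like gene Daam1 rose (0.59, adjusted p = 1.93e-12) and its paralog Daam2 fell (-1.06, adjusted p = 1.37e-12). The calcium-dependent kinase genes Camk2b (-1.18, adjusted p = 4.21e-07), Camk2a (-0.82) and Camk2g (-0.45) fell, and Prickle1 (0.29), Vangl1 (0.24) and the transcription factor gene Nfatc1 (0.22) rose. Rhoa, a GTPase of the polarity branch and the most abundant gene of the list per length, stood at 0.011 on the log2 scale (adjusted p = 0.806). Daam1, Camk2a, Camk2g, Prickle1, Vangl1 and Nfatc1 were named after their values were seen.

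The 11 Wnt ligand genes below the filter held few reads. Wnt7a, at 0.285 ± 0.197 CPM (IL-1β) and 0.28 ± 0.0479 CPM (vehicle), and Wnt10a, at 0.217 ± 0.203 and 0.0699 ± 0.101 CPM, were among them. These levels are near that of 3 counts, and these genes were not among those tested.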
